A study of Mus musculus with 58 samples.

Results

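Mitochondrial ribosomal proteins are the nuclear-coded proteins of the ribosome inside mitochondria, and their messenger RNA was followed here in mouse prefrontal cortex. The members were the protein-coding genes with symbols of the form Mrpl or Mrps and a number, followed in some by a letter from a to c, whose value reached 10 or more in 4 libraries or more. All 78 such genes of the GRCm38 annotation met this, 49 named for the large subunit (Mrpl) and 29 for the small subunit (Mrps), out of 17925 genes tested. The rule used no difference between groups, so every one of the 78 members entered the comparisons.

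Bulk RNA was sequenced from 58 C57BL/6J mice, 1 library a mouse, taken at postnatal day 25 after drug exposure from day 3 to day 24 through the milk of the mother. Labels gave the genotype at Tanc2, a gene for a scaffold protein of synapses, as WT (wild type) or HT (heterozygous). The drug was vehicle, the antidepressant fluoxetine, which blocks serotonin reuptake, or lithium, which is used in bipolar disorder and inhibits GSK3. The 6 arms were WT vehicle (9 mice, 5 females and 4 males), WT fluoxetine (10, 5 and 5), WT lithium (10, 5 and 5), HT vehicle (10, 5 and 5), HT fluoxetine (10, 5 and 5) and HT lithium (9, 5 and 4). The sources used here do not give the dose, the allele or the litter of a pup. Pups of a litter share a mother and hence a dose, so p-values, which treat the mice as independent, can be too small.

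Tanc2 itself was not lower in the HT-labelled mice. Its HT minus WT difference in log2 units was 0.10 in vehicle mice (adjusted p = 0.947 by limma), 0.10 in mice given fluoxetine (adjusted p = 0.745) and 0.09 in those given lithium (adjusted p = 0.436), so its level does not check the genotype labels, and HT below means the mice so labelled. Libraries held 23271044 to 37801615 reads, of which the members took 39668 to 68127 (median 48973). Lists of markers for the cell types and neighbouring tissue that a dissection could hold had reads in every library of all arms. No single marker was at 0 in all 58 libraries. The 4 markers of excitatory cortical neurons summed to between 41723 and 66282 normalized reads over all libraries. A group of 5 olfactory bulb markers ranged more widely, from 91.2 to 13304. In bulk tissue, fewer cells of a type and less RNA per cell cannot be told apart.

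The mitochondrial ribosome translates the 13 proteins that mitochondrial DNA encodes, all of them subunits of the oxidative phosphorylation complexes. Its RNAs come from mitochondrial DNA, while all of its proteins are made in the cytosol and imported. Compared with the bacterial ribosome it carries less RNA and many additional proteins, so that its subunits mix proteins with bacterial counterparts and proteins found only in mitochondria. Many genes for mitochondrial proteins have promoters with sites for NRF1, for GABPA (an ETS factor also called NRF2) or for YY1.

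Start regions from the RefSeq promoter table (GRCm38.p6) were found for 69 of the 78 members, in 75 windows of 250 bases before to 50 after a start. The promoters below belong to members that led the lithium comparisons (Mrps24, Mrpl34, Mrps15, Mrps26), to a member that passed under both drugs (Mrps6) and to Mrps11, whose start lies 42 bases from that of Mrpl46 on the opposite strand. Each runs 5′ to 3′ on the strand of its gene and ends 30 bases past the start, with capitals for the letters of a searched motif on either strand.
Mrps24, chr11:5707672-5707821, minus strand: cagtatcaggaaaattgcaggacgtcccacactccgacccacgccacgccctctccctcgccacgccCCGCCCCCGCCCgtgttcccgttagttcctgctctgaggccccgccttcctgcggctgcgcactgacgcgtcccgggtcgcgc
Mrpl34, chr8:71464806-71464955, plus strand: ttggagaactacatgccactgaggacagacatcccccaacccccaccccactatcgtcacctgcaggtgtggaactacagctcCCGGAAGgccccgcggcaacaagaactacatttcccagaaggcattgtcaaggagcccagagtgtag
Mrps15, chr4:126046808-126046957, plus strand: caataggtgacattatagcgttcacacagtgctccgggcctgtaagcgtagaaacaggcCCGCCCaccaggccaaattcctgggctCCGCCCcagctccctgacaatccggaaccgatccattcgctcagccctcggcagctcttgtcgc
Mrps26, chr2:130563637-130563786, plus strand: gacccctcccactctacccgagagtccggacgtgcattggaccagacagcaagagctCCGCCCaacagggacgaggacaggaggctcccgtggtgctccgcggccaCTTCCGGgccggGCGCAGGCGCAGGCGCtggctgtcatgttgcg
Mrps6, chr16:92058216-92058365, plus strand: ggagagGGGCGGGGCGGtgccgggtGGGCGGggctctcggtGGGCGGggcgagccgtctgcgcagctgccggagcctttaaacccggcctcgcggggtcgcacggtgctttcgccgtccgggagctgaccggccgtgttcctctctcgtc
Mrps11, chr7:78783071-78783160, plus strand: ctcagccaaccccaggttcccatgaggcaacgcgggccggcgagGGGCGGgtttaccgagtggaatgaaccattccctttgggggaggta

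The capitals mark GGGCGG, the core of an SP site, in Mrps24, Mrps15, Mrps26, Mrps6 and Mrps11 (as CCGCCC on the other strand in the first 3), CCGGAAG, the core of an ETS site, in Mrpl34 and (as CTTCCGG) Mrps26, and the NRF1 pattern (GCGCA, any base, GCGC) in 2 overlapping copies in Mrps26. Over the full windows and both strands, the NRF1 pattern was present in 13 of the 75 member windows (17.3%) against 8.59% of the 15071 windows of tested protein-coding genes. CCGGAAG was present in 26 (34.7% against 14.96%) and AAGATGGC, a YY1 pattern, in 12 (16% against 3.80%). GGGCGG was present in 39 (52.0%), against 59.4% of tested protein-coding genes. These are matches of letters and not measured binding.

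Per kilobase of transcript, the members differed widely in mean level over the 58 libraries. Mrpl20, a large-subunit protein with a bacterial counterpart, was highest at 2043 normalized reads per kilobase, and Mrpl1, a protein of the mobile stalk at the exit side of the large subunit, was lowest at 106. The median member stood at 662 per kilobase, against 259 over all genes tested. Transcripts of the members were short, with a median length of 848 bases against 1565 over all genes. Their within-group SD on the log2 scale ran from 0.06 (Mrps5) to 0.29 (Mrpl23), with a median of 0.11, which is the spread against which the differences below are read.

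Members rose with lithium in both genotypes. None passed as lower in the main limma fit to all libraries, where 3.13% of all genes fell in WT and 8.03% in HT. With other settings or a library left out, Mrpl35 or Mrpl24 passed as lower, as given below. In WT mice 15 of the 78 members passed (limma, adjusted p under 0.05 over all 17925 genes), all higher with lithium, where 7.47% of all genes passed and 4.34% passed as higher. In HT mice 35 passed, again all higher, where 16.3% of all genes passed and 8.25% passed as higher. The median lithium effect over the members was 0.09 log2 units in WT and 0.13 in HT, against -0.01 and 0.00 over all genes. Of the 78 members, 68 in WT and 67 in HT had a difference above 0, against 8610 and 8967 of the 17925 genes tested.

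**Figure D1:**
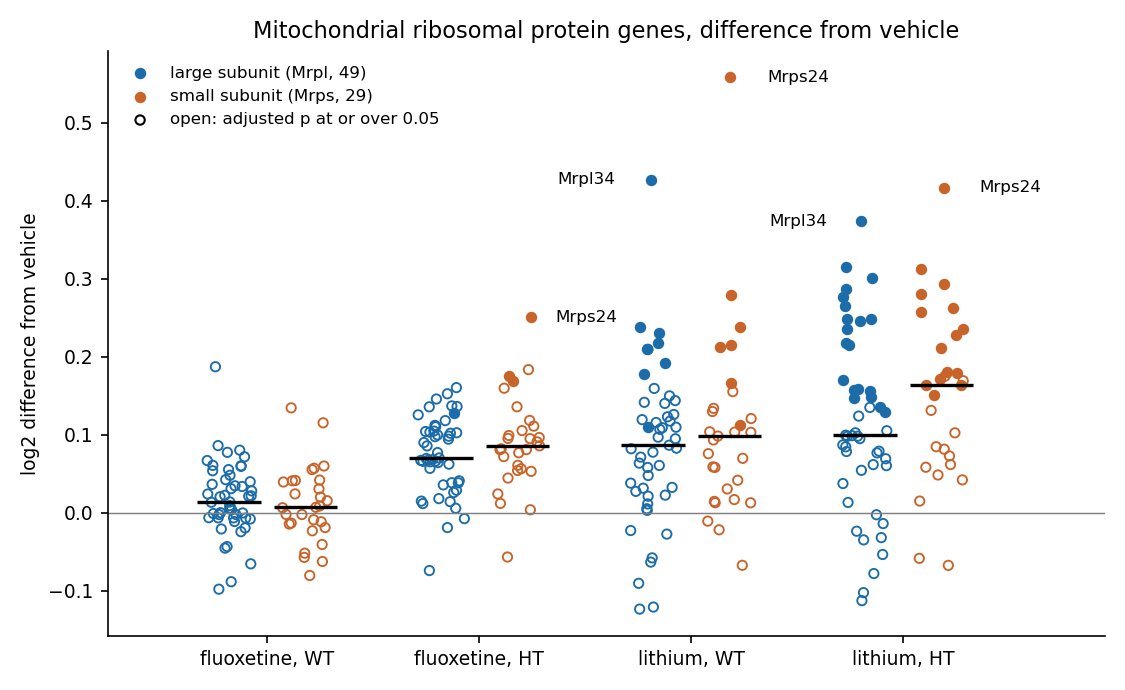
Log2 difference from vehicle of each member (points) for the 4 drug effects, with large-subunit genes in blue and small-subunit genes in orange, filled where the adjusted limma p was under 0.05, and a bar at the median of each subunit. The members lie mostly above 0 with lithium in both genotypes (medians 0.09 and 0.13) and with fluoxetine in HT mice (median 0.08), and around 0 with fluoxetine in WT mice.

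Mrps24 had the largest effect in WT mice. It encodes a small-subunit protein whose bacterial counterpart sits at the entry of the mRNA channel, and its gene lies at chr11:5703983-5715680. Under WT vehicle its level ran from 299.7 to 372.8 normalized reads (median 338), and under WT lithium from 416.7 to 534.5 (median 505). Every WT lithium mouse was above every WT vehicle mouse. The difference was 0.56 ± 0.06 log2 units (SE; adjusted p = 2.68e-08), an increase of 47.2%. In HT mice it ran from 295.4 to 398.9 under vehicle (median 329) and from 367.1 to 622 under lithium (median 438). Here 8 of 9 lithium mice were above all vehicle mice, so the groups overlapped through a lithium mouse. The effect in HT was 0.42 ± 0.06 (adjusted p = 5.84e-06).

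Mrpl34, a short large-subunit protein with a bacterial counterpart (chr8:71464959-71465747), came next in WT. It ran from 279.1 to 335.8 normalized reads under WT vehicle (median 301) and from 346.7 to 452.4 under WT lithium (median 401). The groups did not overlap. The WT effect was 0.43 ± 0.06 log2 units (adjusted p = 5.49e-07). In HT the vehicle mice ran from 250.3 to 358.7 (median 306) and the lithium mice from 357.7 to 463.9 (median 386). Only the lowest of the 9 lithium mice fell within the vehicle range, by about 1 normalized read. The HT effect was 0.37 ± 0.06 (adjusted p = 5.4e-06).

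Mrps34 is a small-subunit protein with no bacterial counterpart (chr17:24895116-24897502). It ran from 528.6 to 672.4 under WT vehicle (median 589) and from 634 to 863.2 under WT lithium (median 748). In WT the groups overlapped, with 7 of 10 lithium mice above all vehicle mice, and the effect was 0.28 ± 0.05 (adjusted p = 0.000365). In HT it ran from 510.1 to 612.3 under vehicle (median 580) and from 640.9 to 915.9 under lithium (median 675). All 9 HT lithium mice were above all 10 HT vehicle mice, with an effect of 0.28 ± 0.05 (adjusted p = 0.000152). Of the 31-base words in the transcripts of Mrps34, 35.6% also occur in another gene, most often Nme3, which overlaps it on the same strand. Some reads could therefore be assigned to another gene.

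Mrps26, another small-subunit protein without a bacterial counterpart (chr2:130563742-130568695), ran from 894.7 to 1047 under WT vehicle (median 971) and from 1065 to 1280 under WT lithium (median 1125). These groups did not overlap, and the effect was 0.24 ± 0.05 (adjusted p = 0.00118). In HT the vehicle mice ran from 921.9 to 1086 (median 971) and the lithium mice from 1035 to 1435 (median 1119). The HT groups overlapped, with 5 of 9 lithium mice above all vehicle mice, and the effect was 0.21 ± 0.05 (adjusted p = 0.0018).

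Mrps15 and Mrpl13 completed the leading members in HT. Mrps15 encodes a small-subunit protein that binds ribosomal RNA in bacteria (chr4:126046925-126055532). It ran from 367.8 to 492.4 under HT vehicle (median 434) and from 481.1 to 616.1 under HT lithium (median 535). In HT, 8 of 9 lithium mice were above all vehicle mice, and the effect was 0.31 ± 0.05 log2 units (adjusted p = 1.62e-05). In WT it ran from 403.3 to 471 under vehicle (median 432) and from 456.9 to 555.3 under lithium (median 495), with 9 of 10 lithium mice above all vehicle mice and an effect of 0.22 (adjusted p = 0.00434). Mrpl13 is a large-subunit protein with a bacterial counterpart (chr15:55534094-55557748). It ran from 444.8 to 527.7 under HT vehicle (median 480) and from 541.3 to 730.6 under HT lithium (median 584), without overlap, and its HT effect was 0.31 ± 0.05 (adjusted p = 6.53e-05). In WT it ran from 482.3 to 563.8 under vehicle (median 495) and from 501.5 to 632.9 under lithium (median 550). The WT groups overlapped, and the difference of 0.16 did not pass (adjusted p = 0.0678).

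Members whose lithium and vehicle mice did not overlap at all were few. In WT they were Mrps24, Mrpl34 and Mrps26, where 0.63% of all genes showed no overlap as higher. In HT they were Mrps34, Mrpl13, Mrpl41 and Mrpl15, against 0.72% of all genes. No member was lower without overlap in either genotype, where 0.257% of all genes were in WT and 0.379% in HT. With shares this low, a list of this size can easily hold no such gene, so the absence says little about the members.

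**Figure D2:**
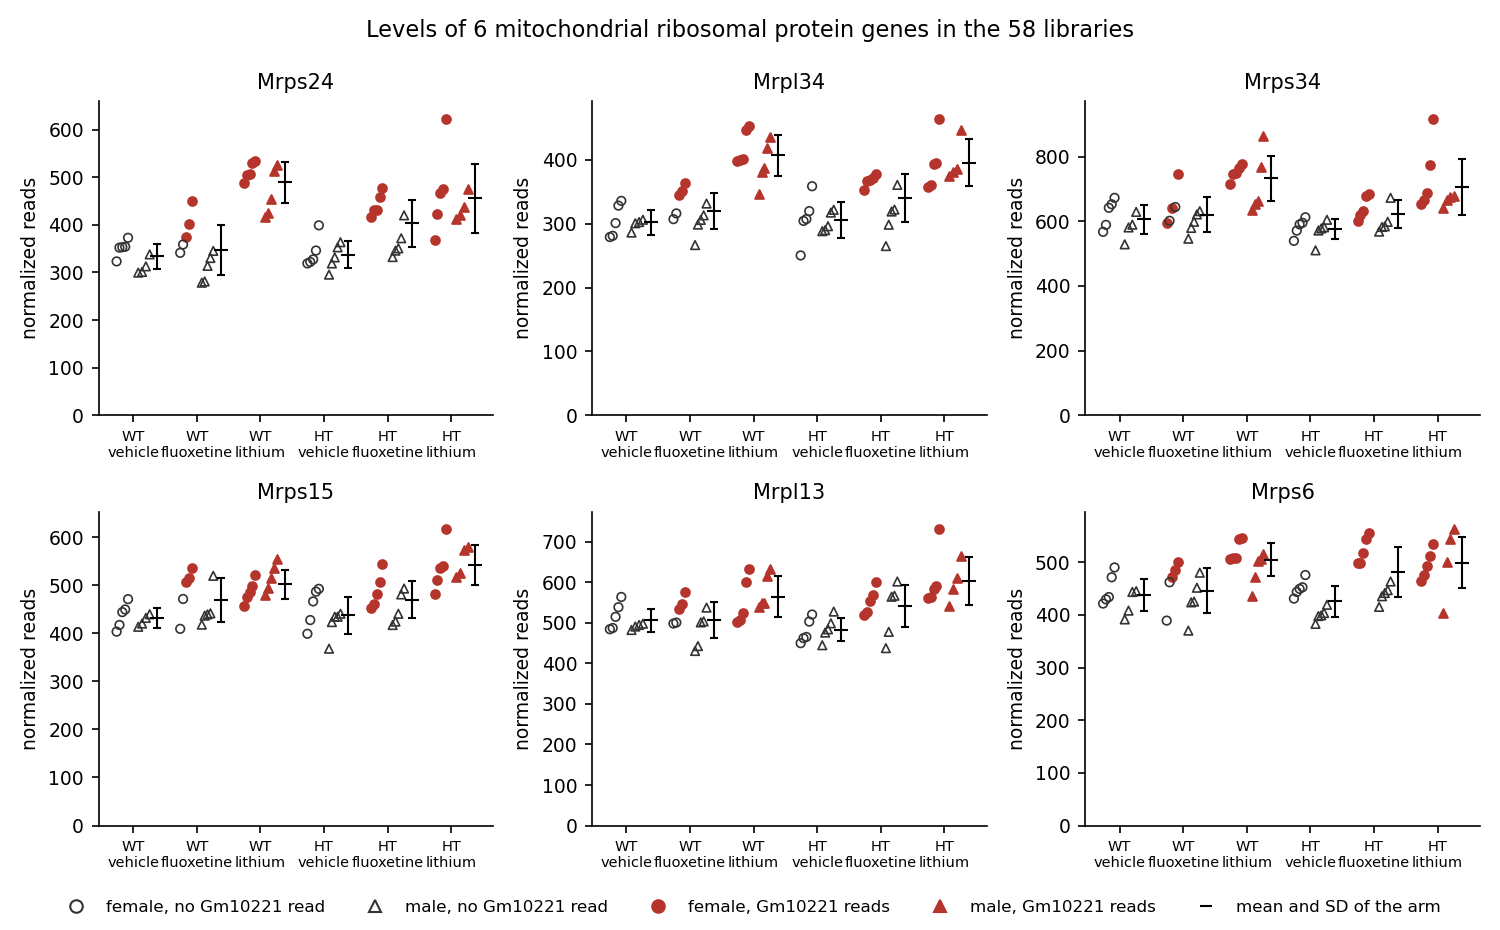
Normalized reads (reads divided by the size factor of a library, linear axis) of leading members in each of the 58 libraries by arm, with females as circles and males as triangles, filled where the library had reads of the gene model Gm10221, and with the mean and SD of each arm beside its points. Mrps24 and Mrpl34 show WT lithium mice that all lie above the WT vehicle mice, and a high HT lithium library stands out in several panels.

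The 2 lithium lists were then compared, since they rest on different mice and share no library. Of the 15 members that passed in WT, 14 (93.3%) also passed in HT, and these were 40.0% of the 35 that passed in HT. The same overlap over all genes is not given here, so the share has no background beside it. Both lists also come from 1 fit with a shared estimate of the spread. In both genotypes all lithium and no vehicle libraries had Gm10221 reads, described below, so the lists are not independent of that division. The 14 were Mrpl11, Mrpl15, Mrpl20, Mrpl34, Mrpl38, Mrpl46, Mrpl52, Mrpl57, Mrps2, Mrps6, Mrps15, Mrps24, Mrps26 and Mrps34. Without HT lithium female 4, a library described below, 12 of these 14 still passed in HT, and Mrpl38 (adjusted p = 0.0513) and Mrpl52 (adjusted p = 0.0633) did not. Mrps12, whose bacterial counterpart works at the decoding centre, passed in WT (0.17, adjusted p = 0.0357) and did not pass in HT (0.06, adjusted p = 0.49). Another 21 passed in HT and did not pass in WT, and 42 passed in neither. Over all members, 64 had a difference above 0 in both genotypes, 7 a difference below 0 in both, and 7 opposite signs. The 7 below 0 in both were Mrpl24, Mrpl35, Mrpl37, Mrpl48, Mrpl55, Mrps14 and Mrps17. None of them passed in the main limma fit to all libraries. There Mrpl35 was at -0.12 in WT (adjusted p = 0.0544) and -0.10 in HT (adjusted p = 0.0814). Mrpl24 was at -0.12 (adjusted p = 0.0895) and -0.08 (adjusted p = 0.244). Mrpl35, a large-subunit protein with a bacterial counterpart, was near the threshold. In WT it passed as lower with DESeq2 (adjusted p = 0.0498), with the stricter filter on low values (adjusted p = 0.0455) and with the replicate block (adjusted p = 0.0464). It also passed as lower without any 1 of 5 libraries in WT, which were WT vehicle female 1, female 3 and male 3, WT lithium female 2 and WT lithium male 3, and in HT without HT lithium male 1.

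**Figure D3:**
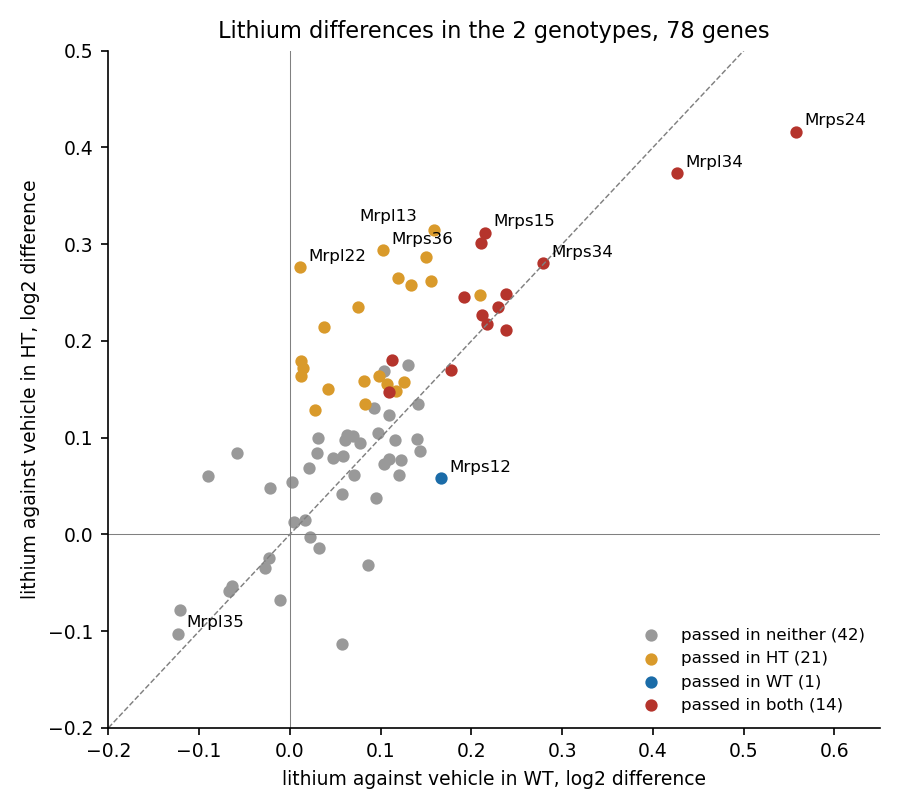
Lithium effect of each member in WT mice (horizontal, log2 units) against that in HT mice (vertical, log2 units), coloured by whether it passed in both, in HT, in WT or in neither, with a dashed line where both differences are equal. Mrps24 and Mrpl34 lie farthest to the right, 64 of 78 members lie above 0 on both axes, and 7 lie below 0 on both.

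The larger count in HT does not by itself show a larger effect, and the difference between the genotypes was tested as an interaction. No member passed (limma), 10 of 78 had an unadjusted p under 0.05 where 6.67% of all genes did, and 0 members passed with edgeR or with DESeq2. The share of all genes that passed was 0.0% with limma and with edgeR and 0.0223% with DESeq2. Of the members, 53 had an interaction above 0, that is a higher lithium effect in HT, against 49.5% of all genes, and the median was 0.03. The members with the smallest p were Mrpl22, which lines the exit tunnel, and Mrpl27, which lies near the peptidyl transferase centre. Mrpl22 ran from 263.8 to 347.9 under WT vehicle (median 303) and from 257.3 to 323.8 under WT lithium (median 317), and from 246.9 to 317.9 under HT vehicle (median 272) and 285.5 to 410.8 under HT lithium (median 329). Its HT lithium mice were thus high and its HT vehicle mice low, and its lithium effects were 0.01 in WT and 0.28 in HT, an interaction of 0.27 (adjusted p = 0.537). Mrpl27 ran from 642.7 to 710.1 under WT vehicle (median 706), 649.2 to 793.2 under WT lithium (median 693), 604.7 to 709.3 under HT vehicle (median 666) and 666.5 to 899.4 under HT lithium (median 757). The groups overlapped in both genotypes, and the interaction was 0.18 (adjusted p = 0.647).

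A single HT lithium library stood apart for the members as a whole. For each library, the members were summarised as the median over the 78 of the log2 difference from the WT vehicle mean. This ran from -0.04 to 0.05 in WT vehicle, -0.11 to 0.10 in WT fluoxetine, 0.04 to 0.13 in WT lithium, -0.07 to 0.05 in HT vehicle, 0.00 to 0.16 in HT fluoxetine and 0.02 to 0.33 in HT lithium. The value of 0.33 belonged to HT lithium female 4, and the next highest HT lithium mouse was at 0.13. Female 4 was the highest of all 58 libraries for 49 of the 78 members (62.8%), against 10.2% of all genes tested. Its depth was within the range of the other libraries, and its sums for each marker list and for the mitochondrially coded genes lay within the range of the other libraries.

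**Figure D4:**
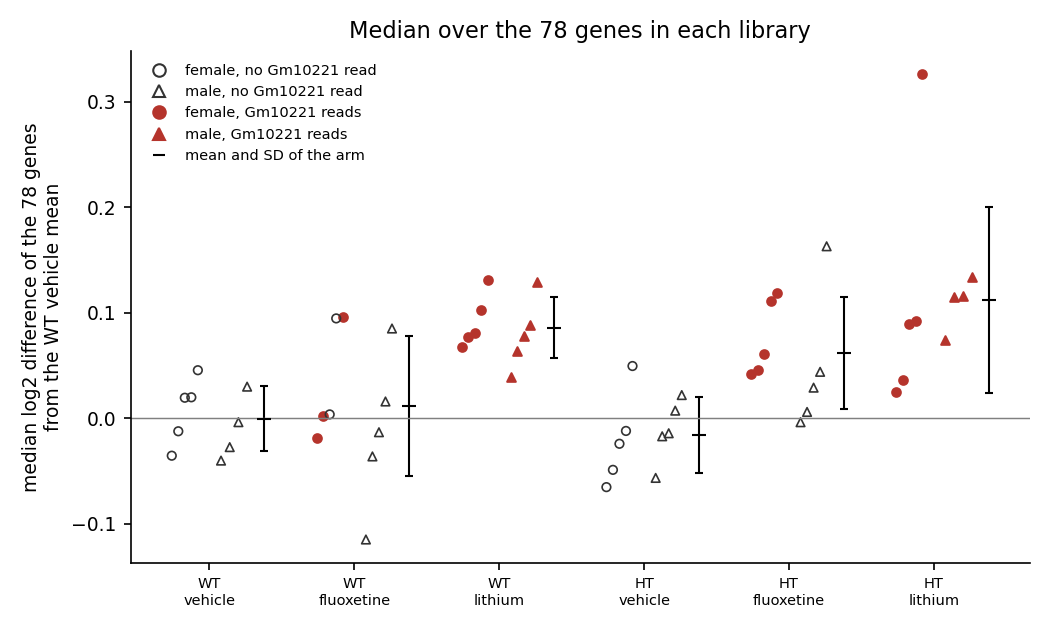
Median over the 78 members of the log2 difference from WT vehicle, for each of the 58 libraries by arm, with females as circles and males as triangles, filled where the library had Gm10221 reads, and the mean and SD of each arm beside its points. The WT lithium libraries sit between 0.04 and 0.13, and HT lithium female 4 sits at 0.33, above all others.

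Without that library fewer members passed for lithium in HT. Of the 35, 25 still passed, all higher, with a median of 0.09 over the members, where 12.4% of all genes passed. The leading members were all still past the test: Mrps24 was at 0.36, Mrpl34 at 0.34, Mrps15 at 0.29 and Mrpl13 at 0.28 log2 units. The 10 members that no longer passed were Mrpl16, Mrpl21, Mrpl38, Mrpl51, Mrpl52, Mrpl54, Mrpl58, Mrps18b, Mrps22 and Mrps33.

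Lithium exposure also coincided with another division of the libraries. Gm10221, a predicted gene model, had reads in 27 of the 58 libraries. These were all 10 WT lithium libraries (86.8 to 223 normalized reads), all 9 HT lithium libraries (146 to 256), 5 HT fluoxetine libraries, all from females, and 3 WT fluoxetine libraries, also from females. All 19 vehicle libraries and all fluoxetine males had 0. With a term for presence of these reads and sex as an additive term, no member passed for lithium in WT (0.0167% of all genes passed) or in HT (0.0%). The median over the members was then 0.07 in WT and 0.12 in HT, and 61 of 78 members had a difference above 0 in WT and 71 in HT.

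The estimates of single members moved by differing amounts with that term, and these differences were not tested. Mrps34 was at 0.24 in WT (adjusted p = 0.192) and 0.24 in HT (adjusted p = 0.130). Mrps26 was at 0.21 (adjusted p = 0.235) and 0.18 (adjusted p = 0.227). Mrps24 was at 0.34 (adjusted p = 0.135) and 0.20 (adjusted p = 0.271), and Mrpl34 at 0.23 (adjusted p = 0.219) and 0.18 (adjusted p = 0.281). In WT lower values were left for Mrps15, at 0.05 (adjusted p = 0.787), Mrpl13, at 0.03 (adjusted p = 0.875), and Mrps6, at 0.06 (adjusted p = 0.725). In HT these genes were at 0.15 (adjusted p = 0.319), 0.19 (adjusted p = 0.238) and 0.07 (adjusted p = 0.634). The HT value of Mrpl13 was thus not below those of Mrps26 and Mrpl34. These are limma values from the fit with the term, adjusted over all genes tested, and none of the 7 genes passed with it in either genotype. Since every lithium library and no vehicle library had Gm10221 reads, the term is estimated within the fluoxetine arms, between females in WT and, given the sex term, between females and males in both genotypes. Lithium cannot be told apart from it by lithium and vehicle libraries alone.

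The WT fluoxetine females, of which 3 had Gm10221 reads and 2 did not, show the same division within a group. Mrps24 was at 375 to 450 in those with the reads and 341 to 359 in those without. Mrpl34 was at 345 to 363 against 307 to 316, and Mrps6 at 471 to 501 against 389 to 462. For these 3 genes the females with the reads were all higher. Mrps15 behaved likewise, at 506 to 535 against 409 to 471. Mrps26, in contrast, was at 945 to 1072 against 1044 to 1108, with overlap. In all, 14 members (17.9%) were higher without overlap in this split of 3 against 2 libraries, where 13.5% of all genes were, and 6 (7.69%) were lower without overlap, where 12.6% of all genes were. Over all members, 34 of 78 (43.6%) were higher in the females with the reads, against 52.4% of all genes, and the median difference was -0.04, so the members as a list were not higher there. What the reads mark, and its part in the lithium effect, was not tested further.

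Fluoxetine moved few members. In WT mice none passed (limma, edgeR and DESeq2 alike) where 1.38% of all genes did, 3 of 78 had an unadjusted p under 0.05 (10.5% of all genes), and the median was 0.01. The smallest p-values were those of Mrps10 and Mrps15, both small-subunit proteins with bacterial counterparts. Mrps10 ran from 454.1 to 557.7 under vehicle (median 502) and from 506.1 to 648.1 under fluoxetine (median 536), with overlap and a difference of 0.13 (adjusted p = 0.153). Mrps15 ran from 403.3 to 471 under vehicle and from 409.2 to 534.9 under fluoxetine (median 456), with a difference of 0.12 (adjusted p = 0.376). The endothelial marker Emcn was lower in this comparison (-0.37, adjusted p = 0.0445, limma). All 4 endothelial, 4 excitatory neuron and 5 myelin markers were below 0. All 5 olfactory bulb and 4 choroid plexus markers were above 0, and astrocyte, interneuron and microglia markers went both ways. Their part was not tested.

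In HT mice 4 members passed, all higher with fluoxetine, where 3.54% of all genes passed, 1.46% as higher and 2.09% as lower. The median over the members was 0.08, and 74 of 78 members had a difference above 0 against 51.3% of all genes. Marker lists moved with this comparison as well, though no marker passed. All 5 striatal neuron markers were above 0 (median 0.37), with sums of 2539.8 to 3756 under HT vehicle and 2968 to 6817 under HT fluoxetine. All 4 microglia markers (median 0.15) and all 4 excitatory neuron markers (median 0.09) were above 0. All 5 olfactory bulb markers (median -0.89) and all 5 red blood cell markers (median -0.40) were below 0. Their part in the result was not tested. Mrps24 was at 295.4 to 398.9 under HT vehicle (median 329) and 332.3 to 476.7 under HT fluoxetine (median 418). Of the 10 fluoxetine mice, 6 were above all vehicle mice, and the effect was 0.25 ± 0.06 (adjusted p = 0.0121).

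Mrps6, a small-subunit protein with a bacterial counterpart (chr16:92058270-92112227), rose by 0.17 ± 0.05 (adjusted p = 0.0244). It ran from 383 to 475.8 under vehicle (median 425) and from 415.3 to 555.2 under fluoxetine (median 481). The groups overlapped, but each of the 10 fluoxetine mice was above the vehicle mean of its sex. Mrpl44, a large-subunit protein related to ribonuclease III, ran from 369 to 442.8 (median 405) and from 417.7 to 479.5 (median 446), with an effect of 0.13 ± 0.04 (adjusted p = 0.0414). Mrps31, which has no bacterial counterpart, ran from 365.4 to 460.5 (median 403) and from 391.2 to 481.9 (median 469), with an effect of 0.17 ± 0.05 (adjusted p = 0.0448). In both, fluoxetine mice lay toward the high end and the groups overlapped.

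These 4 calls were near the threshold, and between 1 and 6 members passed when each library in turn was left out. The effects in females and males were 0.37 and 0.13 for Mrps24, 0.21 and 0.14 for Mrps6, 0.22 and 0.03 for Mrpl44 and 0.24 and 0.10 for Mrps31. The 5 HT fluoxetine females were also the HT fluoxetine libraries with Gm10221 reads, so sex and those reads cannot be told apart in this arm. With the Gm10221 term none of the 4 passed (1.03% of all genes did), and with only the libraries without the reads, which leaves HT fluoxetine males, 0 members passed (0.251% of all genes) with a median of 0.05. No sex difference of a drug effect passed for any member, the smallest adjusted p over the 4 drug effects being 0.999 (limma, where 0.0112% of all genes passed for fluoxetine in HT and 0.0% for the others). At an unadjusted p under 0.05 stood 0 members for fluoxetine in WT (1.84% of all genes), 4 for fluoxetine in HT (4.26%), 1 for lithium in WT (2.63%) and 1 for lithium in HT (2.85%).

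The drugs were next set against each other. Lithium and fluoxetine mice of the same genotype were compared directly, although each arm also serves in the comparisons above. In WT 14 members were higher with lithium and none lower, where 9.55% of all genes passed, 5.29% as higher and 4.26% as lower. Mrps24 was at 278.4 to 449.7 with fluoxetine (median 343), and 8 of the 10 lithium mice were above all of these. Its difference was 0.50 ± 0.06 (adjusted p = 7.36e-08). Mrpl34 was at 266.6 to 363.4 with fluoxetine (median 315), with 9 of 10 lithium mice above, and a difference of 0.35 ± 0.05 (adjusted p = 1.65e-05). The striatal marker Ppp1r1b was also higher with lithium here (0.68, adjusted p = 0.0270), and its part was not tested.

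In HT 6 members were higher and 2 lower with lithium than with fluoxetine, where 6.25% of all genes passed, 3.19% as higher and 3.06% as lower. Mrps15 was at 417.1 to 544.2 with fluoxetine (median 471), overlapping the lithium mice, and differed by 0.21 ± 0.05 (adjusted p = 0.00869). Mrpl34 was at 265 to 377.8 (median 357) and differed by 0.22 ± 0.06 (adjusted p = 0.0121), with 6 of 9 lithium mice above all fluoxetine mice. The other 4 higher members were Mrpl22, Mrpl39, Mrpl41 and Mrps34. The 2 lower members were Mrps17 (-0.15, adjusted p = 0.020) and Mrpl48 (-0.13, adjusted p = 0.0274), which are also among the 7 with lithium effects below 0 in both genotypes. Markers moved in this comparison too. The endothelial markers Pecam1 (-0.28), Flt1 (-0.37) and Cldn5 (-0.31) and the microglia marker Cx3cr1 (-0.26) were lower with lithium, each past the test, and their part was not tested. This HT count was the least settled of all, with 1 call when only the libraries of these arms were fitted, 3 without HT lithium female 4 and 14 without HT lithium female 1.

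No member passed between HT and WT mice in any drug arm. Under vehicle 0 of 78 passed (limma), and 2 had an unadjusted p under 0.05 against 4.54% of all genes. Under fluoxetine 0 passed and 12 had an unadjusted p under 0.05 (6.21% of all genes), and under lithium 0 passed and 14 did (11.2%). The share of all genes that passed was 0.0% in each with limma and with edgeR, and 0.0167%, 0.0112% and 0.0893% with DESeq2, and edgeR and DESeq2 called 0 members as well. The medians were -0.01, 0.05 and 0.02. Above 0, that is higher in HT, were 29 members under vehicle (50.2% of all genes), 67 under fluoxetine (49.6%) and 46 under lithium (50.6%).

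Under vehicle the members with the smallest p were Mrpl22, at -0.12, and Mrps21, at -0.11 (both adjusted p = 0.947). Mrps21 ran from 595.7 to 734.7 in WT vehicle (median 654) and from 499.2 to 693.7 in HT vehicle (median 613), with broad overlap. Under fluoxetine they were Mrps24 (0.22, adjusted p = 0.4665) and Mrps14 (0.17, adjusted p = 0.672). Mrps14 ran from 522.8 to 742.6 in WT fluoxetine (median 613) and from 630.5 to 737.2 in HT fluoxetine (median 672), so its HT values lay within the WT range. Under lithium they were Mrps22, which has no bacterial counterpart (0.19, adjusted p = 0.183), and Mrpl1 (0.14, adjusted p = 0.25). Mrps22 ran from 339.8 to 437.6 in WT lithium (median 395) and from 387 to 532.3 in HT lithium (median 434), again with overlap. Mrpl1 ran from 314.8 to 391.2 (median 345) and from 322.4 to 419 (median 382).

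The fluoxetine effect did not differ between the genotypes past the test for any member either. With limma 0 passed and 13 had an unadjusted p under 0.05, against 6.29% of all genes, and edgeR and DESeq2 called 0 members. The share of all genes that passed was 0.0% with limma and with edgeR and 0.0112% with DESeq2. Of the members, 69 had an interaction above 0, that is a higher fluoxetine effect in HT, against 51.0% of all genes, and the median was 0.06. The smallest p-values were those of Mrps5 and Mrpl36, both with bacterial counterparts. Mrps5 had medians of 1201 under WT vehicle, 1238 under WT fluoxetine, 1249 under HT vehicle and 1196 under HT fluoxetine, and its interaction was -0.11 (adjusted p = 0.792), one of the 9 not above 0. Mrpl36 had medians of 430, 397, 425 and 436 in the same order, and its interaction was 0.20 (adjusted p = 0.792). For both, the 4 groups overlapped.

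Between females and males, 2 members differed, both higher in females, where 0.301% of all genes passed. Mrps24 was higher by 0.17 ± 0.04 (adjusted p = 0.0112) and Mrps6 by 0.12 ± 0.03 (adjusted p = 0.0385). With the Gm10221 term, and within the libraries with or without its reads, neither passed (Mrps24 0.11 with the term, adjusted p = 0.20).

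By subunit, the lithium effect was spread over both. In WT 8 of 49 Mrpl and 7 of 29 Mrps members passed, with medians of 0.09 and 0.10. In HT 20 of 49 and 15 of 29 passed, with medians of 0.10 and 0.16. Of the 46 members with a bacterial counterpart 9 passed in WT and 17 in HT, and of the 32 without one 6 and 18. Over all genes 4.34% passed as higher in WT and 8.25% in HT. Without HT lithium female 4, 10 of the HT calls were lost, and of those genes only Mrpl16 and Mrpl21 have a bacterial counterpart. The HT count of members without one therefore rests more on that library. These are counts, and no difference between the sets was tested.

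Within the large subunit, the 5 members of the stalk that recruits translation factors had 1 call in WT and 2 in HT. Mrpl12, the stalk protein that has also been described as a partner of the mitochondrial RNA polymerase, ran from 1027 to 1134 under WT vehicle (median 1081) and from 1091 to 1261 under WT lithium (median 1185). It ran from 1012 to 1190 under HT vehicle (median 1042) and from 992 to 1416 under HT lithium (median 1141). Its differences of 0.11 (adjusted p = 0.231) and 0.12 (adjusted p = 0.105) did not pass. The 5 members of the central protuberance had 2 calls in WT and 3 in HT. The 6 members around the exit tunnel had 0 and 2, with medians of 0.03 and 0.06. Over all genes 4.34% passed as higher in WT and 8.25% in HT. Without HT lithium female 4, Mrpl54 of the stalk (adjusted p = 0.0578, limma) and Mrpl38 of the central protuberance (adjusted p = 0.0513) did not pass in HT.

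Several symbols do not tell where the protein sits. Mrps18a, Mrps18b and Mrps18c are paralogues, of which Mrps18a is found in the large subunit. Mrps18c ran from 260.9 to 325.1 under HT vehicle (median 297) and from 298.4 to 421.6 under HT lithium (median 357), with overlap and an effect of 0.26 (adjusted p = 0.0154). Mrps18b, at 373.9 to 460.1 (median 420) and 415.4 to 572.5 (median 462), rose by 0.15 (adjusted p = 0.0453), and without HT lithium female 4 was at 0.11 and did not pass (adjusted p = 0.139). Mrps18a, at 694.9 to 860.9 (median 759) and 724.1 to 926.6 (median 779), differed by 0.04 (adjusted p = 0.624). In WT none of the 3 passed.

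Mrps30 is also a large-subunit protein despite its name, and it rose by 0.23 with lithium in HT (adjusted p = 0.00118). Mrps36 is now known as a subunit of the 2-oxoglutarate dehydrogenase complex rather than of the ribosome. It ran from 413.9 to 577.2 under HT vehicle (median 467) and from 542.5 to 721.2 under HT lithium (median 572), with 4 of 9 lithium mice above all vehicle mice. Its HT lithium effect was 0.29 (adjusted p = 0.000286), against 0.10 in WT (adjusted p = 0.313). Mrpl20, the highest member per kilobase, had effects of 0.21 in WT (adjusted p = 0.0329) and 0.30 in HT (adjusted p = 0.000706). Mrpl1, the lowest, had -0.09 (adjusted p = 0.284) and 0.06 (adjusted p = 0.444).

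Other genes of the same pathway were counted in lists. Of 6 further listed mitoribosome subunits, which are Dap3, Chchd1, Aurkaip1, Ptcd3 and Gadd45gip1, all named otherwise, and Mrpl58, 2 passed with lithium in WT and 4 in HT, all higher. Chchd1 was at 0.27 (adjusted p = 0.0103) and 0.38 (adjusted p = 0.000102), and Gadd45gip1 at 0.26 (adjusted p = 7.0e-05) and 0.20 (adjusted p = 0.00152). Dap3, a small-subunit protein that binds GTP, passed in HT (0.15), as did Mrpl58, a peptidyl-tRNA hydrolase built into the large subunit that is also a member (0.15). Without HT lithium female 4, 3 of the 4 still passed in HT, and Mrpl58 did not (0.12, adjusted p = 0.0881). The share of all genes that passed for lithium was 7.47% in WT and 16.3% in HT, and it fell to 12.4% in HT without that library.

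Among 24 assembly factors and rRNA modifiers, 3 were higher and 1 lower with lithium in WT, and 2 higher and 1 lower in HT. These are 16.7% and 12.5% of the list, against 7.47% and 16.3% of all genes, so the HT share was not above that of all genes. Malsu1, which keeps the large subunit from joining too early, was at 0.34 and 0.22, and Rbfa, which acts on small-subunit rRNA, at 0.25 and 0.17. Noa1 (0.13) and Nsun4 (-0.16) passed in WT and Mettl17 (-0.21) in HT. Without HT lithium female 4, Rbfa did not pass in HT (0.15, adjusted p = 0.0987). With fluoxetine in HT, Mrm2, an rRNA methyltransferase, was at 0.24 (adjusted p = 0.0393). None of 13 mitochondrial translation factors passed with lithium or fluoxetine in either genotype (limma). Of 17 mitochondrial aminoacyl-tRNA synthetases only Mars2 passed for a drug effect, lower with lithium in WT (-0.24, adjusted p = 0.00302).

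Of 15 genes of mitochondrial transcription and RNA handling, 1 was higher with lithium in WT, and 3 were higher and 1 lower in HT. These are 6.67% and 26.7% of the list, against 7.47% and 16.3% of all genes. Supv3l1, an RNA helicase of the mitochondrial degradosome, was at 0.13 and 0.17, and Lrpprc, which stabilises mitochondrial mRNA, at 0.11 in HT. Mtpap, the mitochondrial poly(A) polymerase, was at 0.11 in HT, and Twnk, the mitochondrial DNA helicase, at -0.20 in HT (adjusted p = 0.00281). Without HT lithium female 4, Lrpprc (adjusted p = 0.0517) and Mtpap (adjusted p = 0.0580) did not pass, which leaves 13.3% of the list. Of 10 regulators of nuclear genes for mitochondrial proteins, none passed as higher for any drug effect. The coactivators Ppargc1b and Pprc1 were lower with fluoxetine in WT (-0.37 and -0.30) and in HT (-0.42 and -0.22), and with lithium in HT (-0.28 and -0.17). Without HT lithium female 4, neither passed for lithium in HT (adjusted p = 0.0892 and 0.0558), while Nrf1, a transcription factor for such genes, passed as lower (-0.14, adjusted p = 0.0240).

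The 13 mitochondrially coded mRNAs, the templates of this ribosome, moved in both directions with lithium. In WT 1 was higher and 4 lower, and in HT 2 were higher and 3 lower, or 1 and 3 without HT lithium female 4. These are 38.5% of the list in each genotype, against 7.47% and 16.3% of all genes. The highest was mt-Atp6, at 1.14 in WT and 1.25 in HT, and it was also higher with fluoxetine in HT (0.73). Lower in both were mt-Nd4l (-0.82 and -0.72), mt-Co2 (-0.70 and -0.76) and mt-Nd6 (-0.41 and -0.48). These transcripts overlap or adjoin one another, and the sources used here do not say how reads were divided among them.

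**Figure D5:**
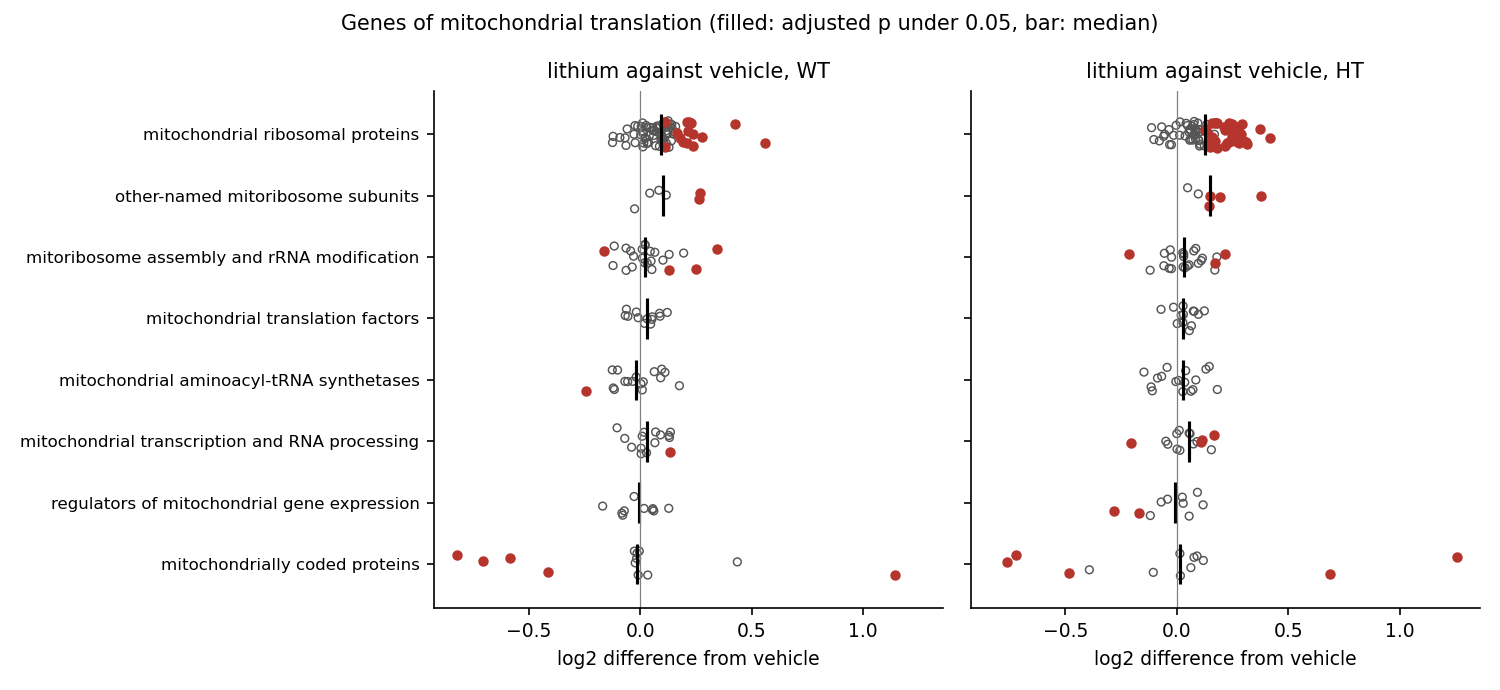
Log2 difference with lithium in WT and in HT mice of the genes in each list of the mitochondrial gene expression pathway (points), filled where the adjusted limma p was under 0.05, with a bar at the list median. The members and the other-named subunits lie mostly above 0, the translation factors lie around 0 with none past the test, and the mitochondrially coded mRNAs spread widely, from mt-Nd4l at -0.82 and -0.72 to mt-Atp6 at 1.14 and 1.25.

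Some members lie beside or across other genes, and 29 of the 78 overlap another gene of the table, 7 of them on the same strand. Slc5a3, a myo-inositol transporter gene within the Mrps6 locus, had lithium differences of -0.23 (adjusted p = 0.115) and -0.22 (adjusted p = 0.095), opposite in sign to Mrps6. Urgcp, which overlaps Mrps24, was at 0.04 and 0.03. Nme3, which overlaps Mrps34 on the same strand, was at 0.17 (adjusted p = 0.0891) and 0.16 (adjusted p = 0.0742). Ndufb5, which encodes a complex I subunit and adjoins Mrpl47, was higher by 0.15 and 0.18. For 18 members more than 10% of 31-base words of the transcript occur in another gene, and for Mrpl53, at 84.4%, the value cannot be assigned with certainty.

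The letters in the promoters did not sort the lithium calls in these data in a uniform way. Only the 69 members with a promoter window are counted here. Over all genes 8.25% passed as higher in HT and 4.34% in WT. In HT 14 of 26 members with CCGGAAG passed against 16 of 43 without, 5 of 13 with the NRF1 pattern against 25 of 56 without, and 1 of 12 with AAGATGGC against 29 of 57 without. For GGGCGG the counts were 14 of 34 and 16 of 35. In WT they were 5 of 26 and 7 of 43, 2 of 13 and 10 of 56, 2 of 12 and 10 of 57, and 7 of 34 and 5 of 35, in the same order. The pair of members on the shared promoter, Mrps11 and Mrpl46, differed in their calls, with Mrpl46 passing in both genotypes and Mrps11 in neither.

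Transcript length and base composition moved with the effects to a degree. Over the 78 members, Spearman's rho of the WT lithium effect was 0.46 with GC content and -0.25 with transcript length, against 0.26 and -0.15 over 17914 genes with a length. In HT it was 0.08 and -0.18, against 0.00 and -0.13. These points share their libraries and give a description only. With a smooth trend on both properties removed, 10 members were higher and 1, Mrpl24, lower in WT (6.83% of all genes passed) and 30 were higher in HT (16.8%), with medians of 0.06 and 0.10.

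Markers of other cell types and tissue differed between some lithium and vehicle libraries. The sum of 5 striatal neuron markers, all present, ran from 2675 to 4286 under WT vehicle and 3020 to 12315 under WT lithium, and from 2539.8 to 3756 under HT vehicle and 2816 to 12421 under HT lithium. None of the 5 passed for a lithium effect. The sums of 4 interneuron markers had medians of 18288 and 19731 in WT vehicle and lithium and of 18567 and 19511 in HT, and none of the 4 passed. All 5 myelin markers were below 0 with lithium in both genotypes (medians -0.19 and -0.19), as were all 5 red blood cell markers (medians -0.22 and -0.30), with none past the test. The endothelial marker Emcn was lower in WT (-0.31, adjusted p = 0.0497), and in HT all 4 endothelial markers were below 0 (median -0.21) with none past the test. The microglia marker C1qa was higher in WT (0.18, adjusted p = 0.0328), with 2 of 4 microglia markers above 0. All 5 olfactory bulb markers were above 0 in both genotypes (medians 0.30 and 0.56), and none passed. Their part in the effects on the members was not tested.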

How the data were processed

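Per the labels' protocols, stranded mRNA libraries were made from prefrontal cortex of 58 mice. The table that the authors deposited gives 18088 Ensembl genes a normalized signal, the reads of a gene over the size factor of that library. GRCm38, Salmon 0.11.2, DESeq2 1.19.11 and R 3.6.0 were used, per the submitters' processing notes, with options not given in the sources used here. Values were whole multiples of a step in each library (100% whole within 0.01), from which reads were recovered. No 2 libraries agreed within sampling noise.

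Symbols came from the GENCODE annotation of GRCm38 (18077 genes matched). A gene was tested when its value reached 10 in 4 or more libraries. limma 3.58.1 with trend was fitted in R 4.3.3 to log2(value + 1) over 58 libraries in 12 groups of genotype, drug and sex, with the sexes weighed equally and Benjamini-Hochberg adjustment over all 17925 genes within each of 12 comparisons, two-sided. Fold changes on this scale understate the change of low genes. Size factors assume that most genes do not change. Alternatives were DESeq2 1.42.0 (Wald) and edgeR 4.0.16 (quasi-likelihood) on recovered reads, pseudocounts of 0.1 and 5, other filters, quantile normalization, only the groups compared, each sex alone, a replicate block, Gm10221 settings, trends on length and GC content and leaving out each library.

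Members named in full were the 4 with the smallest p among those that passed in each drug effect, or 2 where none passed, the 2 with the smallest p in other comparisons, Mrps18a to Mrps18c, Mrpl12, Mrps36 and the extremes per kilobase; up to 4 genes of each list were named. Mrps6 under lithium, the other members listed as passing or not overlapping, Mrps30, Nrf1, single marker genes and neighbouring genes were added after their values were seen. The members, lists and alternatives were chosen with earlier results of these data known. On simulated counts for lithium in WT (17925 genes), changes of 1.15, 1.5 and 2 times were called in 47.8%, 92.5% and 97.0% of the changed genes. False calls were 3.07% of all calls. The simulated mice were independent, without litters or a Gm10221 division, and only genes well above the filter were changed. The false share therefore does not carry over to the calls in the real data.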

Additional observations from a re-analysis of the deposited data

Results flagged for a closer look

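A library lay far from the rest of its arm in 13 of 150 sets of values tested (24 named members and the library median of the members, in each of 6 arms). Chance alone marks about 1 in 20 such sets, and sets that share a library are not independent.

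HT lithium female 4 accounted for 7 of the 13, each time as the highest library. The median of the members against WT vehicle was 0.326 log2 units there, with the next HT lithium library at 0.134. It stood at 926.6 normalized reads for Mrps18a (next 818.4), 853.4 for Mrps21 (next 749.3), 622 for Mrps24 (next 474.9), 1435 for Mrps26 (next 1211), 915.9 for Mrps34 (next 772.4) and 721.2 for Mrps36 (next 610.6).

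The other 6 came from different libraries. In WT lithium, Mrpl22 was at 257.3 in female 4 (the nearest other at 290) and Mrps21 at 577.9 in male 1 (nearest 712.4), both the lowest of the arm. In the same arm Mrps5 was at 1326 in male 4 (nearest 1242) and Mrps26 at 1280 in male 3 (nearest 1172), both the highest. Mrpl22 was highest at 337.3 in HT fluoxetine male 2 (nearest 305.4), and Mrps34 was highest at 746 in WT fluoxetine female 2 (nearest 644.1).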

How the results depend on the processing

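The median effect of the members moved by less than 0.06 log2 units in every comparison and alternative, and no named effect reversed. That bound is the within-group SD of the library median of the members, a spread between mice and not the error of an effect. Beside lithium medians of 0.09 in WT and 0.13 in HT, a move within it can still be a large part of an effect. Counts of members past the test were less stable. In each sex alone (females, then males) they were 3 and 6 for lithium in WT (15 with all libraries), 11 and 12 for lithium in HT (35), 2 and 0 for fluoxetine in HT (4), 2 and 7 for lithium against fluoxetine in WT (14) and 0 and 2 in HT (8), with fewer libraries in each fit. Shares of all genes in the single-sex fits are not given here, so those counts have no background beside them. With the Gm10221 term the counts were 0 for lithium in WT (0.0167% of all genes) and in HT (0.0%) and 0 for fluoxetine in HT (1.03%). For lithium against fluoxetine they were 5 in WT (5.07%) and 0 in HT (1.22%), and for sex 0 (0.201%), against 2 without the term. Among libraries without the reads they were 0 for fluoxetine in HT (0.251%) and 0 for sex (0.0614%). Among those with the reads they were 2 and 0 for lithium against fluoxetine in WT (3.66%) and HT (0.0781%) and 0 for sex (0.0614%). The WT counts of 5 and 2 of the 78 members were near these shares of all genes.

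Lithium against fluoxetine in HT had 5 calls with quantile normalization, 5 with the trends removed (7.28% of all genes), 5 with the replicate block and 1 with only its own arms. Sex had 1 with quantile normalization and 1 with the trends removed (0.257%). The cause of these changes was not tested, and the all-gene shares of the other settings are not given here. Same-numbered replicates did not deviate together (median correlation 0.00 over 309 pairs, 9 of 58 libraries closest to their own number), so the number is not a pairing, and the block moved no other count by over 1.5 times.

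Leaving out 1 library gave 10 to 16 members for lithium in WT, 25 to 41 for lithium in HT, 1 to 6 for fluoxetine in HT, 8 to 19 for lithium against fluoxetine in WT, 2 to 14 in HT and 1 to 2 for sex. Apart from lithium in HT without HT lithium female 4, the shares of all genes in these fits are not given here. For fluoxetine in HT the count was 1 without HT fluoxetine female 5, and 2 without HT fluoxetine female 2, female 4, male 1 or male 2 or without HT vehicle female 3, female 5, male 1 or male 5. For lithium against fluoxetine in WT it was 9 without WT fluoxetine female 1, female 4 or male 5 and 8 without WT lithium male 3. In HT it was 5 without HT fluoxetine female 3, female 4 or male 1, 4 without HT fluoxetine female 5, male 4 or male 5, 3 without HT lithium female 4 or male 2, 2 without HT lithium male 3 and 14 without HT lithium female 1. For sex, Mrps24 passed without any 1 library, and Mrps6 did not pass without any 1 of 26 libraries. With edgeR the counts were 15, 35, 4, 12, 9 and 2 in the same order, against 7.56%, 16.1%, 3.65%, 9.41%, 6.11% and 0.307% of all genes. With DESeq2 the counts were 18 (17 higher and 1 lower), 35, 4, 15, 10 and 2. The all-gene shares with DESeq2 were 8.27%, 16.7%, 4.44%, 10.4%, 7.03% and 0.463%. With the stricter filter lithium in WT had 16 higher and 1 lower, the lower member being Mrpl35 there and with DESeq2. Of the named effects, 45 values under other settings and 56 with a library left out kept their direction and no longer passed.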
